A study of Mus musculus with 45 samples.

Results

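Collagen chain genes were taken as the rows of a gene count table whose symbol reads Col, a number, a, a number, and which reached at least 1 CPM (counts scaled to the total of the library) in at least 2 of 45 libraries. Of 44 such symbols among the 37991 genes of the table, 39 met the rule: 11 fibrillar chains, 8 basement membrane chains and 20 other chains. The members were thus chosen by symbol and by CPM level, so that they are present is no result. Just inside the threshold stood Col19a1, Col4a3 and Col26a1, with at least 1 CPM in 2, 3 and 7 libraries. Just outside stood Col17a1, Col13a1 and Col6a4, whose second highest library held 0.834, 0.638 and 0.621 CPM, and below them Col6a5 and Col6a6 at 0.586 and 0.318 CPM.

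The libraries came from cultured fibroblasts of C57BL/6 mouse embryos (primary MEFs), the matrix-making cells of connective tissue. One set was wild type (WT), and the other, p53KO, lacked p53, a transcription factor that restrains cell division after damage. It came as KO-1 and KO-2, names that the titles carry through all groups and that are read here as 2 lines. All cells were kept overnight in low serum and then given the cytokine interleukin-1 beta (IL-1b, 10 ng/ml), the cytokine tumour necrosis factor (TNF, 10 ng/ml) or the bacterial cell wall component lipopolysaccharide (LPS, 100 ng/ml) for 0, 0.5, 1, 3 or 8 h. Each stimulus had its own 0 h libraries, and each genotype, stimulus and time held 1 WT library and 2 p53KO libraries. WT values therefore carry no error. The labels do not say that KO-1 and KO-2 came from separate embryos, so p-values measure the spread between these libraries, which may be technical. No library was left unstimulated for 3 or 8 h, so an effect of a stimulus and an effect of time in low serum cannot be told apart. The study set p53KO against WT cells as a control for work on inflammatory genes.

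Gene counts per library ranged from 5619870 to 15355994 (median 9347770). Trp53, the gene of p53, lay at 158 to 293 CPM in WT and at 50.9 to 86.6 CPM in both p53KO lines, with no overlap, so reads from the locus remained in p53KO. All 8 fibroblast markers passed the filter on low counts, with a summed level of 10535 to 15635 CPM. Most of this sum was Fn1 and Vim, with medians of 8182 and 3174 CPM. Skeletal muscle markers summed to at most 1.52 CPM and none of the 5 passed. Smooth muscle markers (5 of 5 passed) summed to 5237 to 9964 CPM and macrophage markers (7 of 7 passed) to 101 to 240.7 CPM. The marker sums thus do not show that the cultures were free of other cell types.

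Collagens are proteins of the extracellular matrix in which chains wind into a triple helix. Fibrillar collagens (types I, II, III, V, XI, XXIV and XXVII) build the tensile fibrils of connective tissue, and type V and XI chains help to start fibrils and set their width. Type IV collagen forms the network of basement membranes, to which types XV and XVIII are attached. Other types form beaded filaments (VI), anchoring fibrils (VII) or hexagonal lattices (VIII and X), bind the surface of fibrils (IX, XII, XIV and relatives) or span the cell membrane (XXIII and XXV). Fibroblasts are the main source of types I, III, V and VI.

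Per kb of exon, the scale on which genes can be compared, the mean over the 45 libraries was 1628 CPM per kb for Col1a1 and 620.3 for Col1a2, the 2 chains of type I collagen, the main protein of connective tissue fibrils. Col5a2 (301.9), Col3a1 (299.3), Col4a1 (274.3) and Col5a1 (271.6 CPM per kb) followed, and the ranges of these 4 over libraries overlapped, so their order is not firm. Below them came Col4a2 at 203.1, Col6a1 at 141.4, Col12a1 at 93.2 and Col11a1 at 57.2 CPM per kb. At the other end stood Col4a3, a chain of the mature kidney and lung basement membrane, at 0.0555 CPM per kb. The 10 chains with the highest level per kb thus came from all 3 classes.

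**Figure D1:**
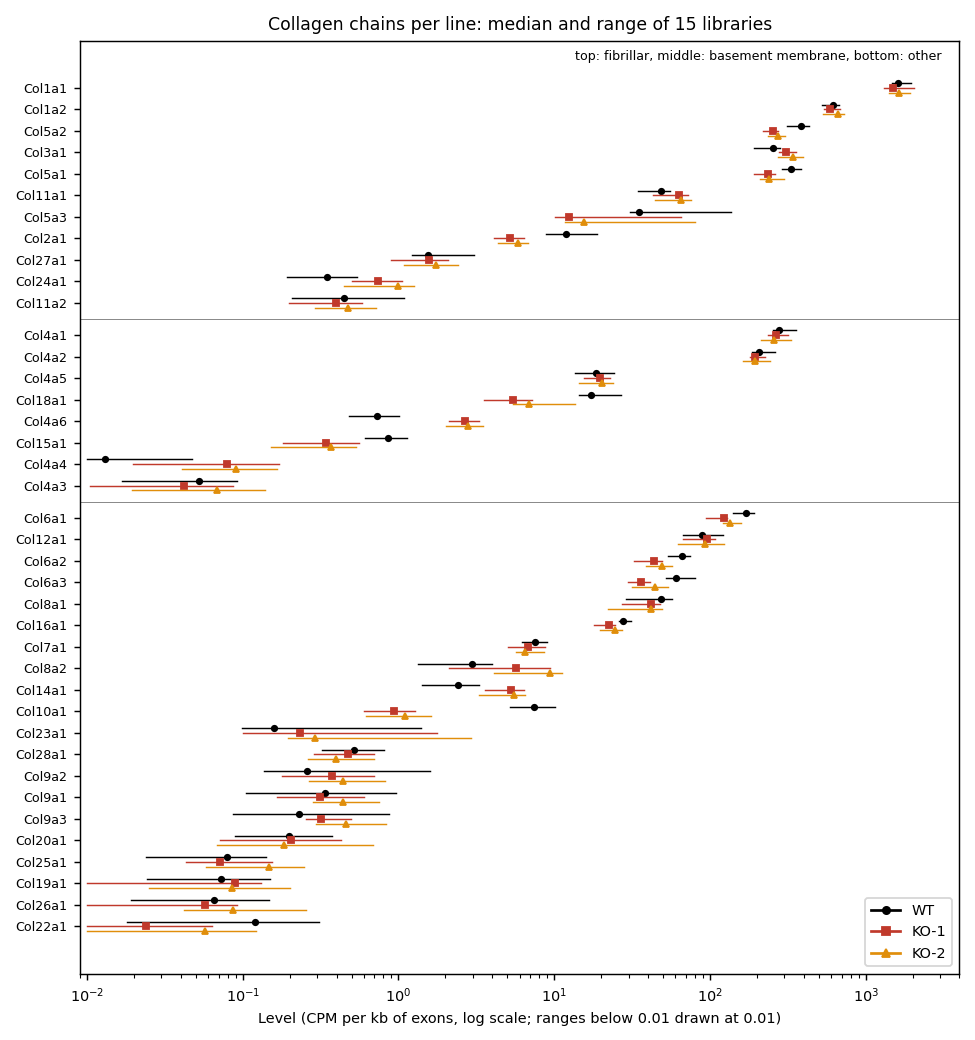
Level of each of the 39 chains in CPM per kb of exon on a log axis, by class. Points are the median of the 15 libraries of each line, and bars span its lowest to its highest library. By the mean over the 45 libraries, Col1a1 (1628 CPM per kb) stands highest and Col4a3 (0.0555) lowest.

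In CPM, Col1a1 (ENSMUSG00000001506, mm9 chr11:94797538-94814356, plus strand) ranged over the 45 libraries from 8672 to 13368 with a median of 10539. Col1a2 ranged from 6514 to 9015 CPM with a median of 7787. The ratio of their counts stayed between 1.21 and 1.62. Together the collagen chains took 3.00 to 3.92% of the gene counts of a library (median 3.52%), and the type I pair took 45.1 to 59.2% of that. Fibrillar chains held 74.3 to 83.3% of collagen counts, basement membrane chains 8.60 to 12.5% and other chains 8.12 to 13.2%. In bulk libraries like these, fewer cells of a type and less RNA per cell cannot be told apart.

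Within the collagen counts of p53KO, the balance between classes moved with time. Basement membrane chains held 9.06 to 9.51% at 0 h (6 libraries, median 9.30%), 10.51 to 12.5% at 3 h (median 11.5%) and 10.4 to 12.04% at 8 h (median 11.7%). Neither later time overlapped 0 h. The type I pair held 54.3 to 56.4% at 0 h and 49.2 to 52.9% at 3 h, also without overlap. In WT (1 library per stimulus) basement membrane chains went from 9.30 to 9.61% at 0 h to 10.9 to 12.5% at 3 h. The collagen share of all counts in p53KO overlapped between 0 h (3.53 to 3.92%), 3 h (3.00 to 3.80%) and 8 h (3.04 to 3.79%). These shares are descriptions with no test.

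The sequences before the start of 3 chains are shown because these chains had the largest changes among those called at 8 h of all 3 stimuli: Col5a3 and Col23a1, which rose, and Col8a2, which fell. The stretches are from RefSeq promoters on GRCm38.p6, read 5′ to 3′ along the gene, and end at the base before the start (1 base earlier for Col8a2, whose GENCODE exon begins there). Capitals mark CCAAT, the core motif of the factor NF-Y, on the given strand. They also mark GGGCGG, the core motif of Sp1, on either strand; on the other strand it reads CCGCCC.
Col5a3 (chr9:20815068-20815317, minus strand): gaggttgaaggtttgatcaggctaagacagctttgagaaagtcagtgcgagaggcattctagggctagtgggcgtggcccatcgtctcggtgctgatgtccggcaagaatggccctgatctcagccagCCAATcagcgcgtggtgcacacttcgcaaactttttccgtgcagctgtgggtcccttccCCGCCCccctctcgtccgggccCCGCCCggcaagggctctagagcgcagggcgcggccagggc
Col23a1 (chr11:51289670-51289919, plus strand): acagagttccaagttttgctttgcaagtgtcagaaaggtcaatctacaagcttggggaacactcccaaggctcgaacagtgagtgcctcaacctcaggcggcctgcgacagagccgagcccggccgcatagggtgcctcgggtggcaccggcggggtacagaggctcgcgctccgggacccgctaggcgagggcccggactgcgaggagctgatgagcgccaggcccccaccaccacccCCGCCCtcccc
Col8a2 (chr4:126286544-126286792, plus strand): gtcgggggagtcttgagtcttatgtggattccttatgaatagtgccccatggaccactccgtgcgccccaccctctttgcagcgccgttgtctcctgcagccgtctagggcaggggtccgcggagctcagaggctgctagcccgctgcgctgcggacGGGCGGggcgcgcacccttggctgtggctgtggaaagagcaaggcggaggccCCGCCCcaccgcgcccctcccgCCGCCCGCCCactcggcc
Col5a3 holds CCAAT 122 bases before the start and GGGCGG on the other strand 63 and 41 bases before it. Col23a1 holds GGGCGG on the other strand 11 bases before the start. Col8a2 holds it on the given strand 93 bases before the start, and on the other strand 41, 19 and 15 bases before it, the last 2 overlapping.

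Of the 39 chains, 30 had a RefSeq promoter entry of 300 bases (250 before to 50 after the start). On either strand, GGGCGG was in 19 of the 30 (63.3%, against 35.9% of all 27025 promoters), CCAAT in 10 (33.3% against 37.9%) and TATAA in 5 (16.7% against 25.5%). The NF-kB consensus was in 2, Col27a1 and Col9a2 (6.67% against 4.35%), and its letters are in none of the windows of Col5a3, Col23a1 and Col8a2. A match is a description of letters, not a binding site.

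Changes with time were few at first. In p53KO, no chain passed the test (edgeR quasi-likelihood, adjusted p under 0.05 over all genes tested) at 0.5 or 1 h of any stimulus. Of all genes, 7.39, 0.751 and 0.527% passed at 0.5 h of IL-1b, TNF and LPS, and 5.94, 5.85 and 5.31% at 1 h. Without adjustment, 6, 0 and 0 chains had a p under 0.05 at 0.5 h and 1, 1 and 2 at 1 h, and DESeq2 also called 0 in each of these comparisons. At 0.5 h of IL-1b, 2 chains (5.13%, where 11.1% of all genes passed) were called with the line as a block, Col12a1 and Col4a5. There were 3 with no filter on low counts, 5 with the 0 h libraries pooled and 1 in each of 3 other settings. At 1 h, 1 chain was called with no filter (TNF and LPS) and with pooled 0 h libraries (IL-1b and TNF). The share of all genes called in the settings other than the block is not given here. In each library, log2 CPM minus its mean over the libraries of the line was also set against transcript length. At 0.5 h of IL-1b the Spearman correlation was -0.418 in KO-1 and -0.603 in KO-2. The part of this trend in the calls with the line as a block was not tested.

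At 3 h of IL-1b, 4 chains rose and 1 fell (12.8% of the 39, where 42.7% of all genes tested passed, 21% higher and 21.7% lower). At 3 h of TNF, 4 rose and 0 fell (of all genes 36% passed, 18.4% higher and 17.6% lower). At 3 h of LPS, 7 rose and 0 fell (44.1%, 21.9% and 22.1%). At 8 h falls prevailed after IL-1b: 2 chains rose and 7 fell (of all genes 24.4%, 12.5% higher and 11.8% lower). After TNF 3 rose and 5 fell (28.6%, 14.5% and 14.1%), and after LPS 5 rose and 6 fell (34.2%, 17% and 17.2%). In this fit the share of chains called lay below that of all genes in each of these 6 comparisons, closely so at 8 h of IL-1b (23.1 and 24.4%). With the line as a block this order held at 8 h for LPS, but not for IL-1b or, by a small margin, TNF. There 17 chains were called for IL-1b (43.6%, against 29% of all genes), 13 for TNF (33.3%, against 32.2%) and 13 for LPS (33.3%, against 38.4%). The median absolute log2 change of the chains was 0.16, 0.16 and 0.21 at 3 h of IL-1b, TNF and LPS, against 0.32, 0.30 and 0.33 over all genes, and at 8 h 0.56, 0.34 and 0.27 against 0.22, 0.25 and 0.26. The WT value moved in the direction of the p53KO call in 4 of 5, 3 of 4 and 6 of 7 calls at 3 h of IL-1b, TNF and LPS, and in 9 of 9, 6 of 8 and 11 of 11 at 8 h.

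**Figure D2:**
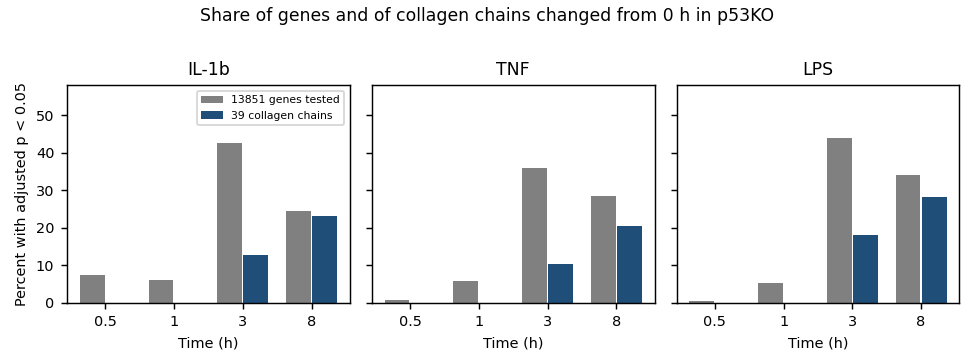
Percent of the 39 chains and of all 13851 genes tested with an adjusted p under 0.05 in each p53KO time comparison. The chains' bars are at 0 at 0.5 and 1 h and below the bars of all genes at 3 and 8 h in this fit, which has no block for line.

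Over the 12 comparisons 15 chains passed at least once: 4 of the 11 fibrillar, 4 of the 8 basement membrane and 7 of the 20 other chains. Of all genes, 73.4% passed at least once. Of the abundant chains, Col5a2, Col4a1, Col4a2 and Col11a1 were among the 15, while Col1a1, Col1a2, Col3a1 and Col5a1 were not. At 3 and 8 h the log2 change in p53KO ranged from -0.32 to -0.01 for Col1a1, from -0.28 to 0.05 for Col1a2, from -0.31 to 0.13 for Col3a1 (type III, the partner of type I in elastic tissues) and from -0.13 to 0.14 for Col5a1. The type VI chains Col6a1 (-0.22 to 0.13), Col6a2 (-0.34 to 0.15) and Col6a3 (-0.09 to 0.17) and the fibril-bound Col12a1 (-0.14 to 0.23) did not pass either. The largest of these for type I was Col1a1 at 8 h of TNF: 11827 and 12248 CPM at 0 h and 9998 and 9230 at 8 h in KO-1 and KO-2, a log2 change of -0.32 (SE 0.13, adjusted p = 0.0623). With the line as a block, Col1a1 (adjusted p = 0.0307), Col1a2 (-0.28, adjusted p = 0.0118) and Col3a1 (-0.30, adjusted p = 0.00582) passed at 8 h of TNF. In that fit Col1a2 (-0.26, adjusted p = 0.0182) and Col6a2 (-0.33, adjusted p = 0.00558) passed at 8 h of IL-1b, Col6a2 at 8 h of LPS (-0.23, adjusted p = 0.0483) and Col12a1 at 0.5 h of IL-1b (-0.56, adjusted p = 0.0321).

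**Figure D3:**
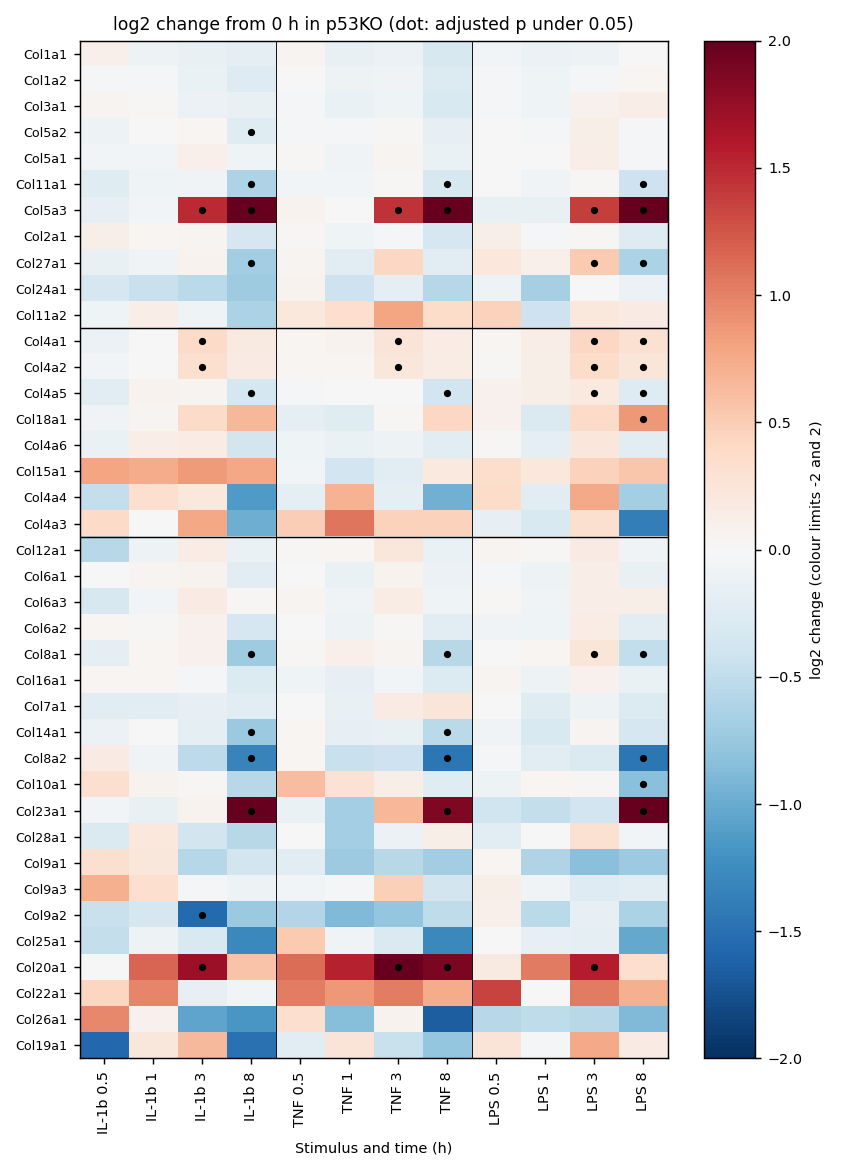
Log2 change from 0 h in p53KO for the 39 chains (rows, by class) at each time of each stimulus; marks show an adjusted p under 0.05. Colours stop at -2 and 2. Of the chains called at 8 h of all 3 stimuli, Col5a3 and Col23a1 are highest and Col8a2 is lowest.

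Col5a3 (ENSMUSG00000004098, mm9 chr9:20574494-20619511, minus strand), the least widespread of the type V chains, rose at 3 and 8 h of every stimulus, the only chain to do so among the 39. Around IL-1b it stood in KO-1 and KO-2 at 84.8 and 95.4 CPM at 0 h, 209.6 and 296 at 3 h, and 348 and 445 at 8 h. Around TNF it stood at 84.6 and 103 CPM at 0 h, 218 and 294 at 3 h, and 441 and 487 at 8 h. Around LPS it stood at 81.0 and 97.1 CPM at 0 h, 206 and 259.8 at 3 h, and 398 and 545.5 at 8 h. Both lines were higher at each later time, and no 8 h library overlapped one at 3 h or 0 h. WT started higher, at 225, 229.7 and 211 CPM, and reached 651.5, 926 and 879 CPM at 8 h. In p53KO the log2 change at 3 h was 1.49 (SE 0.18, adjusted p = 4.16e-07) for IL-1b, 1.44 (SE 0.19, adjusted p = 1.21e-06) for TNF and 1.39 (SE 0.18, adjusted p = 1.01e-06) for LPS. At 8 h it was 2.14 (SE 0.18, adjusted p = 2.9e-09), 2.30 (SE 0.19, adjusted p = 1.32e-09) and 2.40 (SE 0.19, adjusted p = 8.24e-11).

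**Figure D4:**
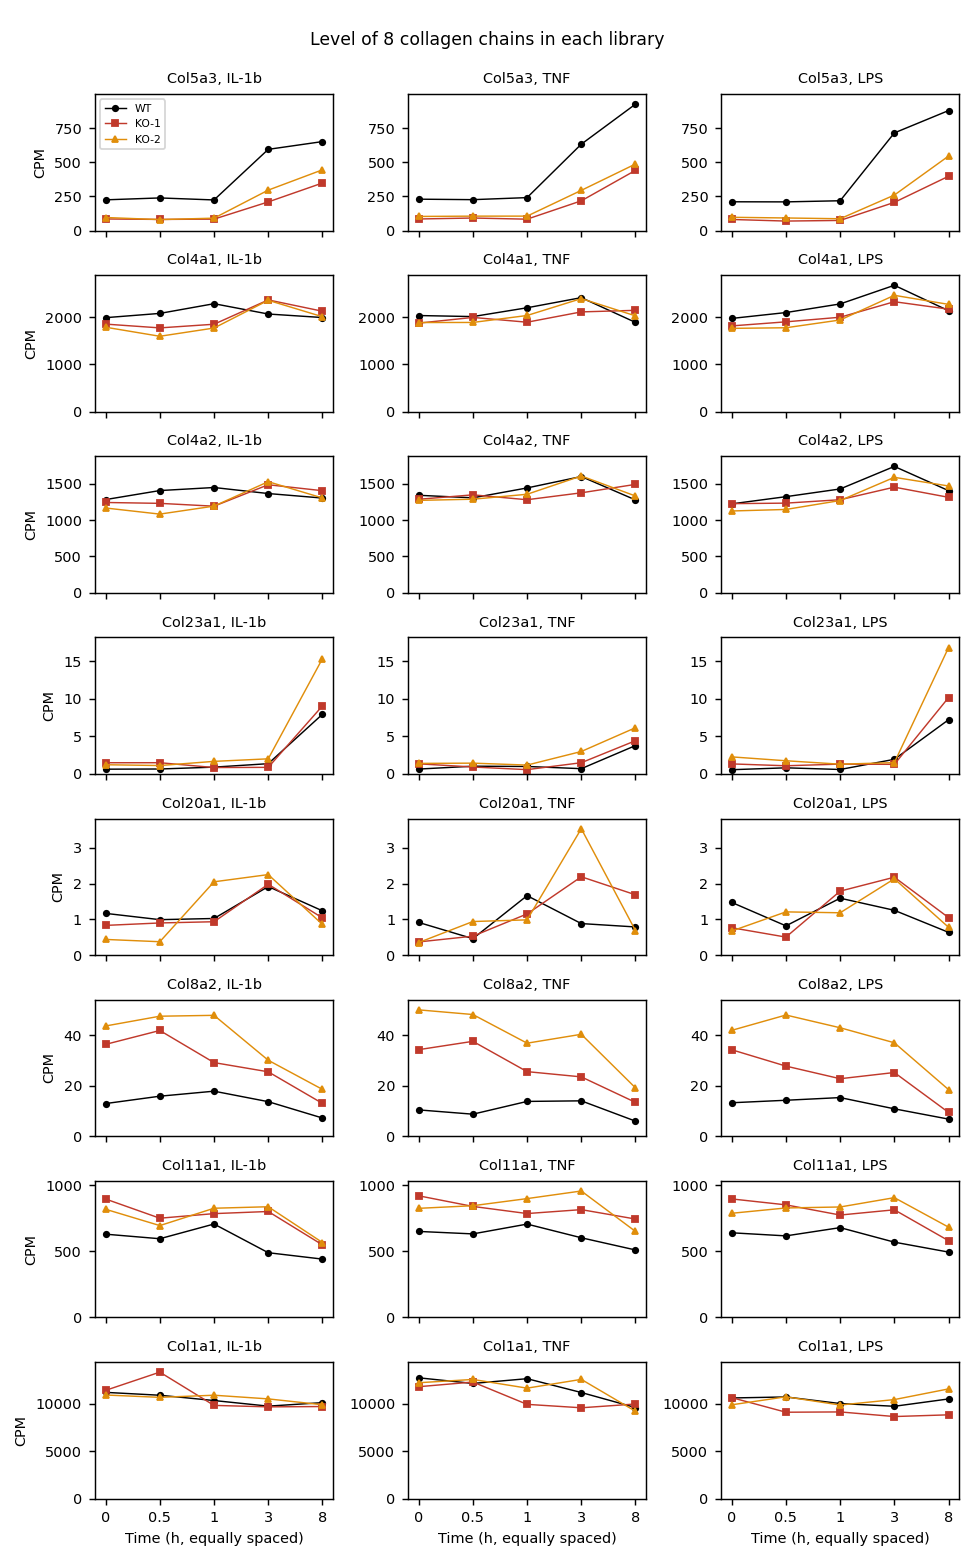
CPM against hours after stimulus for chains named in the text, with a column per stimulus; each line of points is WT, KO-1 or KO-2. Col5a3 climbs from 3 h in all lines, while Col8a2 is lowest at 8 h.

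The other fibrillar chains that passed fell at 8 h. Col11a1, a type XI chain that associates with type V, stood in KO-1 and KO-2 at 897 and 819 CPM at 0 h of IL-1b and at 549.6 and 567.5 at 8 h. Its log2 change at 8 h was -0.62 (SE 0.10, adjusted p = 3.14e-05) for IL-1b, -0.32 (SE 0.10, adjusted p = 0.0138) for TNF and -0.41 (SE 0.10, adjusted p = 0.00143) for LPS. Without 1 library the TNF call (KO-1 at 0 h or KO-2 at 8 h, adjusted p up to 0.167) and the LPS call (KO-1 at 8 h, 0.0519) were lost. Col27a1, a chain of thin cartilage fibrils, rose by a log2 of 0.53 at 3 h of LPS (adjusted p = 0.00782). At 8 h it fell by 0.69 after IL-1b (adjusted p = 0.00321) and by 0.63 after LPS (adjusted p = 0.00489). Around LPS it stood at 21.8 and 18.4 CPM at 0 h, 27.1 and 30.8 at 3 h and 11.65 and 14.1 at 8 h, the 3 times not overlapping, but both LPS calls were lost without some single libraries (adjusted p up to 0.101). Col5a2 fell by 0.25 at 8 h of IL-1b (adjusted p = 0.0415), a call lost when any 1 of the 4 libraries was left out.

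Of the basement membrane chains, the type IV pair Col4a1 and Col4a2, which make up the common network, rose together at 3 h. Col4a1 (ENSMUSG00000031502, mm9 chr8:11198423-11312826, minus strand) went in KO-1 and KO-2 from 1850 and 1784 CPM to 2361 and 2353 after IL-1b. It went from 1871 and 1883 to 2108 and 2389 CPM after TNF, and from 1812 and 1760 to 2323 and 2458 CPM after LPS. Every 3 h library thus exceeded every 0 h library of p53KO. The log2 change was 0.38 (adjusted p = 0.000168), 0.26 (adjusted p = 0.00625) and 0.42 (adjusted p = 3.68e-05), each with an SE of 0.07. Without the KO-2 library at 3 h, the TNF change of Col4a1 was 0.17 (adjusted p = 0.137). Col4a2 rose by 0.32, 0.22 and 0.37 (SE 0.08; adjusted p = 0.0031, 0.0423 and 0.000856). At 8 h both still passed after LPS, with changes of 0.31 (adjusted p = 0.00144) and 0.24 (adjusted p = 0.0276). The Col4a2 calls for TNF and at 8 h of LPS were lost without the KO-2 library at 3 h of TNF (0.10, adjusted p = 0.447) or at 8 h of LPS (0.16, adjusted p = 0.25), and also without KO-2 at 0 h of either stimulus or KO-1 at 0 h of TNF.

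Col4a5, a type IV chain encoded on the X chromosome, went the other way at 8 h. In KO-1 and KO-2 it stood at 142 and 133 CPM at 0 h of IL-1b and at 104 and 110.1 at 8 h. Its log2 change at 8 h was -0.36 (SE 0.07, adjusted p = 0.000577), -0.38 (SE 0.07, adjusted p = 0.000331) and -0.26 (SE 0.07, adjusted p = 0.00539) for IL-1b, TNF and LPS, after a rise of 0.20 at 3 h of LPS (adjusted p = 0.0259). Both LPS calls were lost without KO-1 at the later time (adjusted p = 0.0502 and 0.0541) and without certain other libraries (up to 0.163), and that at 3 h also without a filter on low counts (0.0712). Col18a1, the precursor of endostatin, passed at 8 h of LPS with a log2 change of 0.87 (SE 0.32, adjusted p = 0.0383). It went from 35.0 and 44.8 to 50.6 and 95.4 CPM, and without the KO-2 library at 8 h the change was 0.34 (adjusted p = 0.541). DESeq2 gave it an adjusted p of 0.0983, and it was also lost without either 0 h library. Reads of Col18a1 and of the overlapping opposite-strand gene Slc19a1 (means of 74.3 and 33.4 CPM) may not be separated, since the strand setting of the counting is not given in the sources used here.

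Among the other chains, Col23a1 (ENSMUSG00000063564, mm9 chr11:51103422-51397420, plus strand), a membrane-spanning collagen, rose at 8 h from near the detection threshold. The 2 p53KO libraries together held 32 counts at 0 h and 230 at 8 h of IL-1b, 23 and 99 around TNF, and 41 and 270 around LPS. In KO-1 and KO-2 these were 1.497 and 1.23 CPM against 9.07 and 15.4 for IL-1b. They were 1.35 and 1.41 against 4.43 and 6.16 CPM for TNF, and 1.34 and 2.28 against 10.2 and 16.8 CPM for LPS. No 8 h library overlapped 0 h, and WT also rose, from 0.567 to 0.653 CPM at 0 h to 3.78 to 7.96 at 8 h. The log2 change was 3.15 (SE 0.36, adjusted p = 3.76e-07), 1.87 (SE 0.44, adjusted p = 0.00252) and 2.88 (SE 0.34, adjusted p = 2.3e-07).

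Both type VIII chains fell at 8 h of every stimulus. Col8a1, a chain of short lattice collagen made by vessel wall and corneal cells, stood in KO-1 and KO-2 at 314 and 317 CPM at 0 h and 214 and 173.5 at 8 h of IL-1b. It went from 339 and 340.3 to 229 and 234 CPM around TNF, and from 319 and 326 to 243 and 214 CPM around LPS. The log2 changes were -0.70 (adjusted p = 5.79e-07), -0.55 (adjusted p = 1.98e-05) and -0.50 (adjusted p = 3.39e-05), with SE of 0.08. At 3 h of LPS it had risen by 0.24 (adjusted p = 0.0211), a call lost without any 1 of the 4 libraries. Col8a2 (ENSMUSG00000056174, mm9 chr4:125964037-125991574, plus strand), its partner, chosen here after its values were seen, went from 36.4 and 43.7 to 13.0 and 18.6 CPM after IL-1b. It went from 34.3 and 50.1 to 13.4 and 19.2 CPM after TNF and from 34.3 and 42.0 to 9.45 and 18.49 CPM after LPS. Its log2 changes were -1.34 (SE 0.34, adjusted p = 0.00479), -1.44 (SE 0.35, adjusted p = 0.00302) and -1.44 (SE 0.34, adjusted p = 0.00185). Without the KO-1 library at 8 h the changes of Col8a2 were -1.11, -1.14 and -1.05 and missed the threshold (adjusted p = 0.0773, 0.103 and 0.0544), as did the TNF change without KO-2 at 0 h (0.0646). For both chains no 8 h library of p53KO overlapped one at 0 h.

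Col14a1, which binds the surface of fibrils, fell at 8 h by 0.75 after IL-1b (SE 0.14, adjusted p = 0.000281) and by 0.53 after TNF (SE 0.14, adjusted p = 0.00589), the latter with an adjusted p of 0.1 without KO-1 at 8 h. Col20a1, a relative of low level, passed at 3 h of all 3 stimuli, with log2 changes of 1.70 (adjusted p = 0.00595), 2.93 (adjusted p = 0.000236) and 1.57 (adjusted p = 0.0103). These rest on 15 counts against 37, 6 against 45 and 16 against 34 over both p53KO libraries. DESeq2 gave the LPS change an adjusted p of 0.0718, and leaving out KO-2 at 0 h ended the calls for LPS (0.0644) and IL-1b (0.0722). Its call at 8 h of TNF (1.88, adjusted p = 0.0281) rests on 24 counts in KO-1 and 4 in KO-2, and without that KO-1 library the change was 0.90 (adjusted p = 0.593). The other calls are weak and were singled out after their values were seen. Col9a2 fell by 1.56 at 3 h of IL-1b (48 counts against 12, adjusted p = 0.0148, DESeq2 0.0771, and 0.131 without KO-1 at 3 h) while the WT change was 1.03. Col10a1 fell by 0.84 at 8 h of LPS (adjusted p = 0.0467), a call lost in 8 of 12 alternative settings.

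Of the 24 chains that never passed, those of low level had the widest range of change at 3 and 8 h, such as Col26a1 (-1.65 to 0.07), Col19a1 (-1.49 to 0.75), Col4a3 (-1.38 to 0.78), Col25a1 (-1.29 to -0.18) and Col4a4 (-1.13 to 0.76). Col2a1, Col16a1, Col7a1 and Col4a6 stayed between -0.37 and 0.24. The remaining 7, Col11a2, Col24a1, Col15a1, Col9a1, Col9a3, Col22a1 and Col28a1, ranged from -0.83 to 1.04. With the line as a block, Col16a1 (-0.28), Col24a1 (-0.71), Col25a1 (-1.31) and Col4a6 (-0.37) passed at 8 h of IL-1b (adjusted p = 0.0189, 0.0226, 0.0423 and 0.0407), and Col16a1 at 8 h of TNF (-0.26, adjusted p = 0.0315). Chains called elsewhere gained calls in that fit too: Col18a1 rose at 8 h of IL-1b (0.63) and TNF (0.46) and Col4a1 at 8 h of IL-1b (0.18), Col27a1 rose at 3 h of TNF (0.41), Col8a2 fell at 3 h of IL-1b and TNF (-0.53 and -0.42) and Col14a1 at 8 h of LPS (-0.33). A miss of the threshold does not show that a level stayed the same.

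Markers of other mesenchymal cells moved with time in p53KO as well. The 7 chondrocyte markers, of which 5 passed the filter and Matn1 was near 0, summed to 47.3 to 59.1 CPM at 0 h, 59.9 to 78.5 at 3 h and 31.1 to 49.1 at 8 h, so every 3 h library lay above every 0 h library. The rise of the sum at 3 h came from Sox9. Its p53KO mean went from 23.7 to 40.65 CPM around IL-1b, 25.5 to 48.3 around TNF and 21.3 to 41.8 around LPS. Acan, Matn3 and Comp had lower means at 3 h than at 0 h of each stimulus, and Hapln1 did after IL-1b and TNF. The 5 osteoblast markers, of which 3 passed and Bglap was near 0, summed to 29.2 to 33.7 CPM at 0 h, 28.7 to 41.8 at 3 h and 14.6 to 27.7 at 8 h, the last below every 0 h library. Smooth muscle markers (5 of 5 passed) summed to 6240 to 6911 CPM at 0 h, 7107 to 9330 at 3 h and 5237 to 6992 at 8 h, and fibroblast markers to 10894 to 13402, 12682 to 15047 and 11866 to 14609 CPM. Macrophage markers (7 of 7 passed) summed to 110.2 to 131.7 CPM at 0 h, 129.2 to 200.9 at 3 h and 119.5 to 240.7 at 8 h. Their members did not move together. Around LPS the p53KO mean of Cd14 went from 16.26 CPM at 0 h to 91.33 at 8 h, and that of Csf1r from 44.17 to 34.31. The part of these markers in the changes of the chains was not tested.

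Differences between stimuli were tested as the difference of the changes in p53KO. No chain passed in any of the 6 comparisons. Of all genes, 1.88 and 4.4% passed between LPS and TNF at 3 and 8 h, 1.61 and 3.92% between LPS and IL-1b, and 0.116 and 0.505% between IL-1b and TNF. Unadjusted p under 0.05 was reached by 0, 3, 1, 1, 0 and 2 chains in that order, and DESeq2 called 0 in each. The smallest adjusted p belonged to Col3a1, whose change at 8 h was 0.43 higher after LPS than after TNF (95% interval 0.09 to 0.77, adjusted p = 0.175). It passed when the line was a block (adjusted p = 0.0243; 5.97% of all genes passed), and when the KO-1 library at 8 h of LPS was left out. With no filter on low counts, Col3a1 (adjusted p = 0.000664), Col1a2 (0.0114), Col7a1 (0.0114) and Col1a1 (0.0121) passed between LPS and TNF at 8 h. Col1a2 (0.0155) then also passed between LPS and IL-1b. The share of all genes called with no filter is not given here. Col7a1, the anchoring fibril chain, changed by -0.27 after LPS and 0.24 after TNF at 8 h, a difference of -0.52 (95% interval -0.95 to -0.08, adjusted p = 0.221). For Col1a2 the LPS minus TNF difference was 0.33 (adjusted p = 0.296), for Col4a3 -1.84 (adjusted p = 0.408) and for Col20a1 -1.54 (adjusted p = 0.426). For Col14a1 the LPS minus IL-1b difference was 0.42 (adjusted p = 0.367). The rise of Col5a3 at 8 h differed by 0.10 between LPS and TNF (95% interval -0.42 to 0.63) and by 0.27 between LPS and IL-1b (-0.26 to 0.79). That of Col23a1 differed by 1.28 between IL-1b and TNF (-0.02 to 2.58), an interval that holds both no difference and one of over 2 log2 units.

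Whether the time course differed between p53KO and WT was tested over the 4 later times together. After IL-1b 2 chains passed, both of type IV (5.13% of the chains, where 5.74% of all genes passed). Col4a5 (adjusted p = 0.00316) had changed by -0.38 in WT at 3 h, but by 0.04 in KO-1 and 0.07 in KO-2, a difference of 0.44 (SE 0.12). Col4a1 (adjusted p = 0.0249) had changed by 0.05 in WT and by 0.35 and 0.40 in the p53KO lines, a difference of 0.32 (SE 0.12). DESeq2 called these 2 chains as well. The next chains were Col4a2 (adjusted p = 0.164) and Col11a1 (adjusted p = 0.190). Both calls were lost when each library's trend on transcript length was removed (adjusted p = 0.148 for Col4a5 and 0.288 for Col4a1), and Col27a1 was then the 1 chain called (adjusted p = 0.0419). Log2 CPM minus its mean over the libraries of the line was set against transcript length over 9561 genes. The Spearman correlation was -0.493 in the WT library at 3 h of IL-1b. After TNF and LPS 0 chains passed (backgrounds 0.462 and 2.66%), 5 and 1 had an unadjusted p under 0.05, and DESeq2 called 0 and 0. With the line as a block, Col5a3 also passed after LPS (adjusted p = 0.0204; 5.13% of all genes passed) and after IL-1b (0.00363; 9.82%).

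For the comparison of the genotypes themselves, all 15 libraries of a line were added up, which gave 1 sum for WT and 2 for p53KO. Of the 36 chains tested (Col19a1, Col4a3 and Col26a1 were below the filter), 7 were higher and 13 lower in p53KO, 55.6% where 40.4% of all genes passed, 21.1% higher and 19.2% lower. Col4a4 met the filter through p53KO alone and Col22a1 through WT alone, so a difference was built into their being tested. Of the 34 chains that met it in both genotypes, 6 were higher and 12 lower, 52.9% where 39.5% of such genes passed, 20.1% higher and 19.4% lower. DESeq2 called 18 of the 36. A line effect and a genotype effect of WT cannot be told apart, because WT was 1 line.

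Lower in p53KO was Col10a1, the chain of hypertrophic cartilage, at 1.89 to 5.08 CPM over the 30 p53KO libraries against 16.4 to 31.6 in the 15 WT libraries, a log2 difference of -2.83 (SE 0.12, adjusted p = 6.92e-06). The overlapping opposite-strand gene Nt5dc1 had a mean of 13.7 CPM, so part of the Col10a1 counts may be its own. Col18a1 lay at 25.0 to 50.6 CPM in KO-1 and 38.3 to 95.4 in KO-2, against 102 to 189.5 in WT, a difference of -1.54 (SE 0.16, adjusted p = 0.000305). Col2a1, the main fibrillar chain of cartilage, lay at 37.97 to 62.6 CPM in p53KO and 81.4 to 175 in WT, a difference of -1.18 (SE 0.07, adjusted p = 2.85e-05). Col5a3 had a difference of -1.24 (SE 0.07, adjusted p = 2.44e-05), with ranges that overlapped over times. The abundant Col5a2 (-0.54), Col5a1 (-0.49), Col6a3 (-0.66), Col6a2 (-0.50) and Col6a1 (-0.43) were also lower, by smaller amounts. Of these 5, Col5a2 alone had WT and p53KO libraries that did not overlap. Col15a1 (-1.33), Col16a1 (-0.27) and Col8a1 (-0.23) were lower too. For Col22a1, tested through its WT level alone, the sums were 1.17 CPM in WT, 0.296 in KO-1 and 0.532 in KO-2. DESeq2 did not call Col22a1 (adjusted p = 0.0508) or Col6a1 (adjusted p = 0.057). Col16a1 missed the threshold with no filter on low counts (adjusted p = 0.0636) and with the 0 h libraries alone (0.106).

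**Figure D5:**
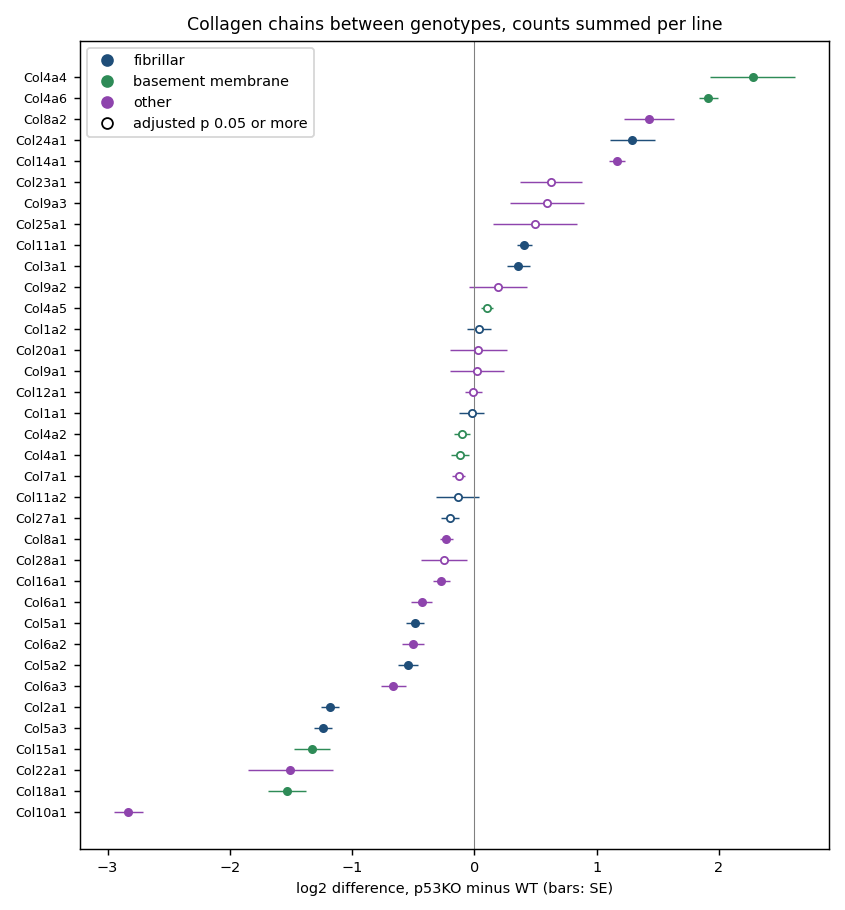
Log2 difference p53KO minus WT on line sums, with SE, for the 36 chains tested, by class; filled points have an adjusted p under 0.05. Of the 34 chains that met the filter in both genotypes, Col10a1 lies lowest at -2.83 and Col4a6 highest at 1.91; Col4a4 and Col22a1 met it in 1 genotype.

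Higher in p53KO was Col4a6, the partner of Col4a5 on the X chromosome, at 16.0 to 28.0 CPM in p53KO against 3.82 to 8.08 in WT, a difference of 1.91 (SE 0.08, adjusted p = 5.77e-06) with no overlap. Col14a1 lay at 25.1 to 45.2 CPM in KO-1 and 23.1 to 45.5 in KO-2 against 9.92 to 23.1 in WT, a difference of 1.17 (SE 0.06, adjusted p = 1.74e-05). Col8a2 (1.43), Col24a1 (1.29), Col11a1 (0.41) and Col3a1 (0.36) were higher too. For Col4a4, tested through its p53KO level alone, the sums were 0.198 CPM in WT, 0.856 in KO-1 and 1.07 in KO-2. The 2 type I chains did not pass, at -0.02 for Col1a1 and 0.04 for Col1a2, nor did Col4a1 (-0.12), Col4a2 (-0.10) or Col12a1 (-0.01).

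Markers of other cell types also differed between the lines. The 4 Schwann cell markers, of which 3 passed the filter, summed to 7.65 to 11.7 CPM in WT, 1.035 to 2.44 in KO-1 and 0.89 to 2.98 in KO-2. The 6 epithelial markers, of which 5 passed, summed to 6.36 to 15.3 CPM in WT and 26.7 to 47.8 in p53KO. This gap came mostly from the keratin genes Krt18 and Krt8. The median of Krt18 was 4.904 CPM in WT, 23.23 in KO-1 and 21.31 in KO-2, and that of Krt8 was 2.128, 7.451 and 7.504. Krt14 and Epcam were higher in both p53KO lines at low levels. Cdh1 (0.5728, 0.5496 and 0.3933 CPM) and Krt5 (0.4772, 0.07852 and 0.1204 CPM) had lower medians in both. Osteoblast markers summed to 26.6 to 86.5 CPM in WT, 14.6 to 41.8 in KO-1 and 18.2 to 55.4 in KO-2. The median of Ibsp was 14.06 CPM in WT, 0.7185 in KO-1 and 1.885 in KO-2, while that of Runx2 was 28.46, 28.83 and 30.31. Chondrocyte markers summed to 39.6 to 67.7 CPM in WT and 31.1 to 78.5 in p53KO. The sums of fibroblast and of smooth muscle markers overlapped between the lines, but single members differed. In WT, KO-1 and KO-2 the median of the fibroblast marker S100a4 was 474.1, 51.16 and 55.61 CPM. Of the smooth muscle markers, Myh11 (22.41, 80.6 and 77.25 CPM) and Des (34.12, 131.2 and 116.2) were higher in p53KO. Acta2 (5495, 4903 and 4308) was lower. The part of these markers in the genotype differences of the chains was not tested.

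The genes that make, bind and degrade collagen were counted alongside. Of 33 genes of collagen synthesis and processing 31 were tested: 8 rose and 2 fell at 3 h of IL-1b, 4 and 1 at 3 h of TNF and 12 and 1 at 3 h of LPS. These are 32.3, 16.1 and 41.9% of the genes tested, where 42.7, 36 and 44.1% of all genes passed. At 8 h it was 6 and 6, 0 and 9, and 8 and 4 (38.7, 29.0 and 38.7%, where 24.4, 28.6 and 34.2% of all genes passed), and between genotypes 4 were higher and 14 lower (58.1%, against 40.4%). Lox, which cross-links fibrils, rose by 0.40, 0.36 and 0.42 at 3 h of IL-1b, TNF and LPS, and Plod3, which hydroxylates and glycosylates lysines, by 0.44, 0.28 and 0.57. P4ha3, a prolyl hydroxylase subunit, fell at 8 h by 1.12, 1.03 and 1.03. Adamts14, which trims procollagen ends, rose by 0.87 at 8 h of LPS, and Loxl3 by 0.55.

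Of the 7 collagen receptors, 3 rose and 1 fell at 3 h of IL-1b, 3 and 1 at 3 h of TNF and 3 and 2 at 3 h of LPS. At 8 h 2 rose and 2 fell, 1 and 2, and 2 and 2. That is 57.1, 57.1 and 71.4% of the receptors at 3 h and 57.1, 42.9 and 57.1% at 8 h, each above the share of all genes, over 7 genes only. Itga2, the integrin subunit that binds type I collagen, rose at 8 h by 3.28, 4.62 and 4.65 for IL-1b, TNF and LPS (SE 0.29, 0.31 and 0.28). It started near the detection threshold, at p53KO means of 1.435, 1.095 and 1.276 CPM at 0 h, and reached 13.95, 26.17 and 29.38 CPM. Itga11 fell by 1.49, 1.54 and 1.37 and Itga1 by 0.84, 0.63 and 0.46. Of the 7 genes of collagen breakdown, 2 rose and 0 fell at 3 h of each stimulus. At 8 h 2 rose and 1 fell after IL-1b and after TNF, and 3 rose and 1 fell after LPS. That is 28.6% of them at 3 h of each stimulus, below the share of all genes, and 42.9, 42.9 and 57.1% at 8 h, above it. The collagenase gene Mmp13 rose at 8 h by 2.79 (SE 0.47), 2.67 (SE 0.53) and 4.54 (SE 0.45), and Mmp9 by 3.51, 3.55 and 3.63. Mrc2, an uptake receptor for collagen fragments, fell by 0.52, 0.62 and 0.48. Of 6 fibril-binding proteoglycans tested, 0 rose and 1 fell at 3 h of IL-1b, and 2 rose and 2 fell at 8 h. That is 16.7 and 66.7%, where 42.7 and 24.4% of all genes passed, over 6 genes only. Ogn fell at 8 h by 1.68, 1.49 and 1.26 for IL-1b, TNF and LPS. Lum rose at 8 h by 1.37 after IL-1b and 1.67 after LPS, with 0.51 after TNF (adjusted p = 0.314). At 8 h of each stimulus the p53KO means of Fmod, Prelp and Bgn were below those at 0 h, and that of Dcn was above.

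Pairs of chains of the same collagen type, and some of different types, were compared across libraries. Over the 15 libraries of WT, KO-1 and KO-2, Pearson's r of log2 CPM was 0.96, 0.90 and 0.99 for Col4a1 and Col4a2, and 0.95, 0.96 and 0.91 for Col6a1 and Col6a2. It was 0.83, 0.73 and 0.76 for Col8a1 and Col8a2, 0.86, 0.70 and 0.75 for Col4a5 and Col4a6, and 0.65, 0.78 and 0.76 for Col1a1 and Col1a2. It was 0.64, 0.43 and 0.72 for Col5a1 and Col5a2 and 0.45, 0.49 and 0.50 for Col6a1 and Col6a3. Of the pairs of different types, Col3a1 and Col5a2 had an r of 0.83, 0.46 and 0.74, and Col1a1 and Col3a1 0.56, 0.69 and 0.65. It was 0.52, 0.48 and 0.89 for Col11a1 and Col2a1, and -0.14, -0.61 and 0.14 for Col1a1 and Col4a1. For Col1a1 and Col5a3 it was -0.54, -0.44 and -0.18. A high r was thus not particular to chains of the same type. The libraries of a line share their cells and each pair shares library and depth, so these are descriptions with no test. On mm9, Col4a1 and Col4a2 lie head to head on chromosome 8 and overlap by 22 bp, Col4a4 and Col4a3 lie 71 bp apart on chromosome 1, and Col4a6 and Col4a5 lie 1308 bp apart on the X chromosome. The Col4a1 to Col4a2 count ratio stayed between 1.44 and 1.65 in all 45 libraries, while for the X chromosome pair the genotype difference was 1.91 for Col4a6 and 0.10 for Col4a5 (adjusted p = 0.135). Over the 45 libraries and 9632 genes, Col1a2 had the pattern most like Col1a1 (r = 0.71), followed by Ltbp3 and Mapre3 (0.67 each) and Dctn1 and Atf5 (0.66 each).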

How the data were processed

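Total RNA of 45 libraries was selected by poly(A), made into stranded libraries and read with paired ends, per the labels' protocols. The authors deposited whole-number read counts per Ensembl gene. STAR, featureCounts, DESeq and the mm9 build are named, per the submitters' processing notes, while strand setting and annotation release are not given in the sources used here. Rows naming no gene (24.65% of counts) were left out; 18.81 to 23.6% of the counts of a library were alignments that were not unique, which may hold reads of like chains.

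Counts were fitted in R 4.3.3 with edgeR 4.0.16 (quasi-likelihood, TMM factors 0.889 to 1.07, 30 groups), over the 13851 genes that reached 1 CPM in 2 or more libraries. Residual degrees of freedom were 15, prior ones 9.75, and the common BCV (biological coefficient of variation) was 0.0679. WT groups of 1 library were assumed to vary like p53KO groups. Same-numbered p53KO libraries were read as pairs because KO-1 and KO-2 name a line in every group, as read from the titles. The main fit did not use this pairing. Over 9632 genes the deviations of KO-1 correlated between groups with a median r of 0.191 (-0.169 to 0.504), and 73 of 105 pairs of groups exceeded 0.1. The fit had no block, and values with the line as a block stand beside results that it changed. Genotypes were tested on line sums (12918 genes, 1 residual degree of freedom). P-values were adjusted by Benjamini-Hochberg over all genes of a comparison. Levels are TMM-scaled CPM and membership used plain CPM. Log2 CPM used a prior count of 2. Exon lengths came from GENCODE (GRCm38).

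The members, lists and tests were chosen with earlier results of these data known. Values in full were given for the 4 chains per class with the highest mean CPM, up to 4 per class with the smallest adjusted p over time, up to 6 between stimuli, up to 6 between genotypes and up to 4 for the time course between genotypes; exceptions are stated. Endothelial, macrophage and adipocyte markers summed to 10.2 to 27.4, 101 to 240.7 and 7.47 to 23.3 CPM over the libraries. Alternatives were DESeq2 1.42.0 (test and size factors), filters, the line as a block, p53KO alone, pooled 0 h libraries, a length trend removed with MASS 7.3.60.0.1, and leaving out libraries. In data simulated with 200 genes changed 2-fold, 78% were recovered for time, 67.5% between stimuli, 58% for time courses between genotypes (13851 genes each) and 95.5% between genotypes (12918 genes). The simulated libraries shared no effect of line. Smaller changes were not simulated, so these rates do not apply to them.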

Additional observations from a re-analysis of the deposited data

Results flagged for a closer look

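The IL-1b time courses of 2 type IV chains differed between p53KO and WT by the edgeR F test over the 4 later times. They are 5.13% of the chains, a share no higher than the 5.74% of all genes called. For Col4a5 the adjusted p was 0.00316, and at 3 h the log2 change was -0.38 in WT, 0.04 in KO-1 and 0.07 in KO-2. For Col4a1 the adjusted p was 0.0249, and at 3 h the changes were 0.05, 0.35 and 0.40. WT had 1 library at each time. With the transcript length trend of each library removed, the adjusted p was 0.148 and 0.288.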

How the results depend on the processing

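Counts of chains called moved by over 1.5 times under these settings, and no result reversed. Without a filter on low counts, calls for IL-1b went from 0 to 3 at 0.5 h, 5 to 9 at 3 h and 9 to 19 at 8 h. For TNF they went from 0 to 1 at 1 h, 4 to 7 at 3 h and 8 to 14 at 8 h, and for LPS from 0 to 1 at 1 h. Between stimuli at 8 h they went from 0 to 4 (LPS and TNF) and 0 to 1 (LPS and IL-1b), and for the genotype time courses from 2 to 7, 0 to 4 and 0 to 3 (IL-1b, TNF, LPS). With at least 5 CPM required, IL-1b gave 1 at 0.5 h and 3 at 3 h, where fewer chains were tested. Pooled 0 h libraries gave 5, 1 and 15 at 0.5, 1 and 8 h of IL-1b and 1 and 15 at 1 and 8 h of TNF. DESeq2 size factors and p53KO libraries alone each gave 1 at 0.5 h of IL-1b. Removing the length trend left 1 chain in the IL-1b genotype time course. The share of all genes called can move too: with the line as a block it was 29% at 8 h of IL-1b, against 24.4% without. That share is not given here for the other settings or with libraries left out. Their counts are therefore not read as results about the chains. The cause of these moves was not tested further.

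With the line as a replicate block, 2, 17, 13 and 1 chains were called at 0.5 h and 8 h of IL-1b, 8 h of TNF and between LPS and TNF at 8 h, and 1 in the LPS genotype time course (0, 9, 8, 0 and 0 without it). Of all genes, 11.1, 29, 32.2, 5.97 and 5.13% passed with the block in that order. No chain called without the block lost its call under it.

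Leaving out 1 p53KO library gave 4 to 6 calls at 3 h and 7 to 9 at 8 h of IL-1b, 2 to 5 and 5 to 7 for TNF, 4 to 5 and 6 to 12 for LPS and 0 to 1 between LPS and TNF at 8 h. The libraries that moved a count by over 1.5 times were KO-2 at 3 h of TNF (2 calls left), KO-1 at 8 h of TNF (5), KO-2 at 0 h of LPS (4 at 3 h, 7 at 8 h), KO-2 at 3 h of LPS (4) and KO-1 at 8 h of LPS (6). Without KO-1 at 8 h of LPS, Col3a1 was called between LPS and TNF, a setting chosen after seeing the data. A test of stimuli in 1 line alone has no residual degrees of freedom and was not run. The count of 20 genotype calls stayed within 1.5 times in all alternatives that could be tested. With a p53KO line left out no test was possible. Of 675 single-chain values under alternatives, 594 kept the direction and, where a test was run, the side of the threshold, and 60 lost the call. The other 21 kept the direction but moved by more than the SE of the main fit. All 21 were genotype differences with a p53KO line left out, which have no test. Depth limits the low chains: the TNF calls of Col20a1 start from 6 counts over both 0 h libraries.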
